A study of Mus musculus with 4 samples.

Results

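Both CD44high subsets of CD8 T cells were set against both CD44low subsets, to find the genes on which CD44 divides these cells whatever their CD62L. The CD44high side consisted of P2, which was CD62Lhigh (as central memory cells are), and of P3, which was CD62Llow (as effector and effector memory cells are). The CD44low side consisted of P1, which was CD62Lhigh (as naive cells are), and of P4, which was CD62Llow and is the population named in the study's title. The mice were C57BL/6, PD-1-/-, untreated and 1 to 3 months old, and all 4 subsets were sorted from their spleen and lymph node, so that both sides lacked this coinhibitory receptor and no wild-type cells were compared. The labels do not give the number of mice or whether cells of several mice were pooled.

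There was 1 single-colour array for each subset, all on 1 slide, and these 4 arrays are all those of the series analysed here. The arrays of a side differ in CD62L and are not replicates. Differences are therefore given without a replicate check and without a test. P2 and P3 lay at slide positions 2 and 3 and P1 and P4 at positions 1 and 4, and position and CD44 side cannot be told apart. Levels are the log2 of a probe's processed signal relative to the 75th percentile of its array, and they compare arrays, not genes. The gap of a gene is the lower CD44high level minus the higher CD44low level where CD44high was higher, and the higher CD44high level minus the lower CD44low level where it was lower. Probes well above background numbered 27827 in P2 and 30811 in P3, against 28033 in P1 and 28617 in P4. Repeated spots within an array gave a log2 difference a 95% half-width of 0.18 at levels of 0 or more, 0.37 at levels from -3 to 0 and 0.63 below -3. Variation from mouse to mouse, from sort to sort or in labelling is not part of these widths.

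CD44 is a surface receptor for hyaluronan, a sugar polymer of the extracellular matrix. CD8 T cells carry little of it until they meet antigen or strong cytokine signals and keep it at high density as memory cells. Memory cells with central homing keep CD62L, which admits cells to lymph nodes, while effector cells shed it. CD44high cells also arise in uninfected mice through cytokines such as interleukin 15, and these virtual memory cells carry CD62L and inhibitory receptors of the Ly49 family.

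Genes were counted first. Among the 12474 genes measured, both CD44high arrays exceeded both CD44low arrays by at least 2-fold in 123 (0.986%) and were below them by at least 2-fold in 62 (0.497%). With a gap of any size, 1630 genes (13.1%) were higher and 2599 (20.8%) lower, and the remaining 8245 overlapped between the sides. A gap of at least 4-fold was reached by 27 genes higher and 12 lower. The same rule applied to CD62L, P3 and P4 over P1 and P2, gave 332 of 12703 genes higher (2.61%) and 20 lower (0.157%). CD44 thus divided fewer genes at 2-fold than CD62L did, though more of them in the lower direction. Over all measured genes the side difference, the mean of P2 and P3 minus the mean of P1 and P4, had a median of -0.06.

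Cd44 itself, the gene of the sorted marker, stood at 2.79 in P2 and 2.65 in P3, against -1.27 in P1 and -0.71 in P4. Its gap of 3.37 (10.3-fold) was far wider than the differences within either side, and its 3 measured probes went the same way. Genes of the sorted lineage differed little. Cd3e, a subunit of the T cell receptor complex, stood at 6.66 in P2 and 6.59 in P3, against 6.87 in P1 and 6.97 in P4, a gap of -0.21 that turned into an overlap of the sides after quantile normalization and in the authors' deposited values. Cd8a and Cd8b1, the coreceptor chains, overlapped between the sides. Pdcd1, the gene of the missing receptor, followed CD62L and not CD44, with -2.53 in P2 and 2.30 in P3, against -2.77 in P1 and 2.23 in P4. Its spot lay in locally bright areas of the P2 and P4 arrays, and whether its probe lies in the stretch of the gene that the knockout removes was not examined.

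Gzmm and Ccr2 had the largest measured gaps. Gzmm, the gene of granzyme M, a protease of cytotoxic granules, stood at 5.29 in P2 and 3.44 in P3, against -0.38 in P1 and -0.18 in P4, a gap of 3.62 (12.3-fold). Il18rap, a subunit of the interleukin 18 receptor, had 1.00 in P2 and 1.03 in P3, against -3.61 in P1 and -2.48 in P4 (gap 3.48). Samd3 had 3.71 in P2 and 2.52 in P3, against -1.84 in P1 and -0.78 in P4 (gap 3.30, with 4 measured probes going one way). In all 3 genes the arrays of a side lay closer to each other than to the other side. Ccr2, a receptor for monocyte chemokines that memory T cells also carry, had -0.25 in P2 and 0.99 in P3, against a signal not well above background in P1 and -3.87 in P4 (gap 3.62). Cd163l1, a scavenger receptor gene known from gamma delta T cells, had 4.87 in P2 and 1.43 in P3, against -1.87 in P1 and -0.98 in P4 (gap 2.41). Dlg5, a scaffold protein gene, had a gap of 2.81, but its spot lay in a locally bright area of the P3 array.

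**Figure D1:**
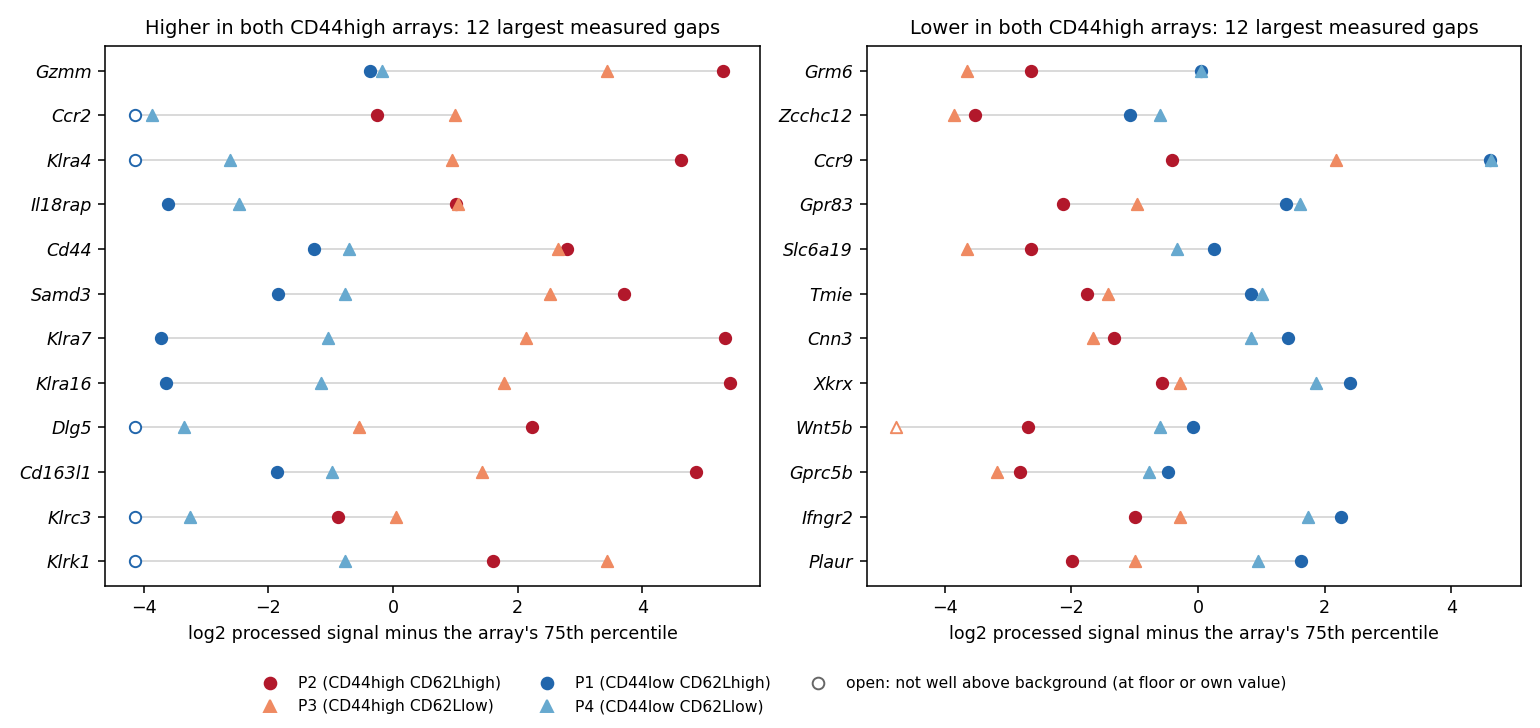
Levels (log2 signal relative to the 75th percentile of the array, horizontal axis) of the 12 genes with the largest measured gap in each direction, 1 row a gene, with P2 and P3 in red and orange and P1 and P4 in blues. The CD44high points lie to the right of the CD44low points by 2.37 or more in every row on the left, and to the left of them by 1.94 or more in every row on the right.

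Some CD44high genes were well above background in neither CD44low array, so that their gaps are bounds taken against the lowest signal well above background on each array. Ebi3, a subunit of the cytokines interleukin 27 and 35, stood at -0.72 in P2 and 0.71 in P3 and was at least 10.7-fold higher than in P1 and P4. Lrrc25 (-1.07 in P2 and -1.20 in P3) was at least 7.66-fold higher, and Galnt14, a glycosyltransferase gene (-1.39 in P2 and -0.20 in P3), at least 6.74-fold. Cd40, a costimulatory receptor of antigen-presenting cells, gave a bound of 7.13-fold, but its P2 level of 6.76 came from a spot in a locally bright area and its P3 level was -1.30. Bounds made up 24 of the 123 genes, and 22 of the 123 were well above background in neither P1 nor P4.

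Within the CD44high side, P3 was above P2 in 71 of the 123 genes, by at least 2-fold in 32, and P3 was at least 2-fold below P2 in 22. On the CD44low side P4 was above P1 in 83, by at least 2-fold in 35, and at least 2-fold below P1 in 1. Both differences within the sides were under 1 in 49 genes and under 0.5 in 23, and in 75 the gap was wider than both of them. Among genes with both within-side differences under 0.5, Slc9a7, a sodium and proton exchanger gene, had 1.66 in P2 and 1.74 in P3, against -0.35 in P1 and -0.40 in P4 (gap 2.01). Hopxos, a noncoding RNA gene named as the opposite strand of Hopx, had 0.94 in P2 and 0.95 in P3, against -1.21 in P1 and -0.99 in P4 (gap 1.94). Gcat, an enzyme of threonine breakdown, had a gap of 1.80, and Ifitm10, of the interferon-induced transmembrane family, had 2.73 in P2 and 2.36 in P3, against 0.32 in P1 and 0.76 in P4 (gap 1.60). In these genes the CD62Llow and CD62Lhigh arrays of each side differed by under 0.5 on the log2 scale. The gaps of Gcat and Ifitm10 were under 2-fold when probes were averaged. Further probes were measured for 31 of the 123 genes, and in 30 of these they separated the sides the same way.

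Killer lectin-like receptors, the surface receptors by which natural killer cells and memory CD8 T cells sense class I molecules and stress ligands, gave the most members. Of 23 listed genes, 21 were on the array and 17 were measured. Of the 17, 11 were at least 2-fold higher in both CD44high arrays and 0 were lower, 4 more were higher without overlap, and the median side difference was 3.28, or 2.08 without the P1 array. Of all genes, 0.986% were at least 2-fold higher and 13.1% higher by any gap. Many members entered because the CD44high arrays were bright: 5 of the 17 were well above background on all 4 arrays, and 3 of those 5 were at least 2-fold higher. Within the CD44high side the family split. All 9 measured Ly49 genes were higher in P2 than in P3, with Klra4 at 4.62 in P2 and 0.95 in P3, against a signal not well above background in P1 and -2.62 in P4 (gap 3.57). Klra7 had 5.32 in P2 and 2.14 in P3, against -3.73 in P1 and -1.04 in P4 (gap 3.18), and Klra16 had 5.41 in P2 and 1.77 in P3, against -3.64 in P1 and -1.16 in P4 (gap 2.94). Genes of the NKG2 group leaned to P3. Klrk1, which encodes the activating receptor NKG2D, had 1.61 in P2 and 3.43 in P3, against a signal not well above background in P1 and -0.77 in P4 (gap 2.37). Klrc1, the gene of the inhibitory receptor NKG2A, had -1.28 in P2 and -0.89 in P3, against a signal not well above background in P1 and -3.54 in P4 (gap 2.26). Klrc3, with a gap of 2.38, had its P2 spot in a locally bright area, and so had Klra5. Klrd1, the CD94 chain that pairs with NKG2A, was high on every array (5.84 in P2 and 5.62 in P3, against 5.53 in P1 and 5.11 in P4) with a gap of 0.09. Klra1 and Klrb1a overlapped between the sides. Of listed genes outside the filter, Klra17 had 0.36 in P3 and was not well above background in P2, P1 or P4, and Klrg1 was not well above background in P2 and had 2.81 in P3, against a signal not well above background in P1 and 0.10 in P4.

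**Figure D2:**
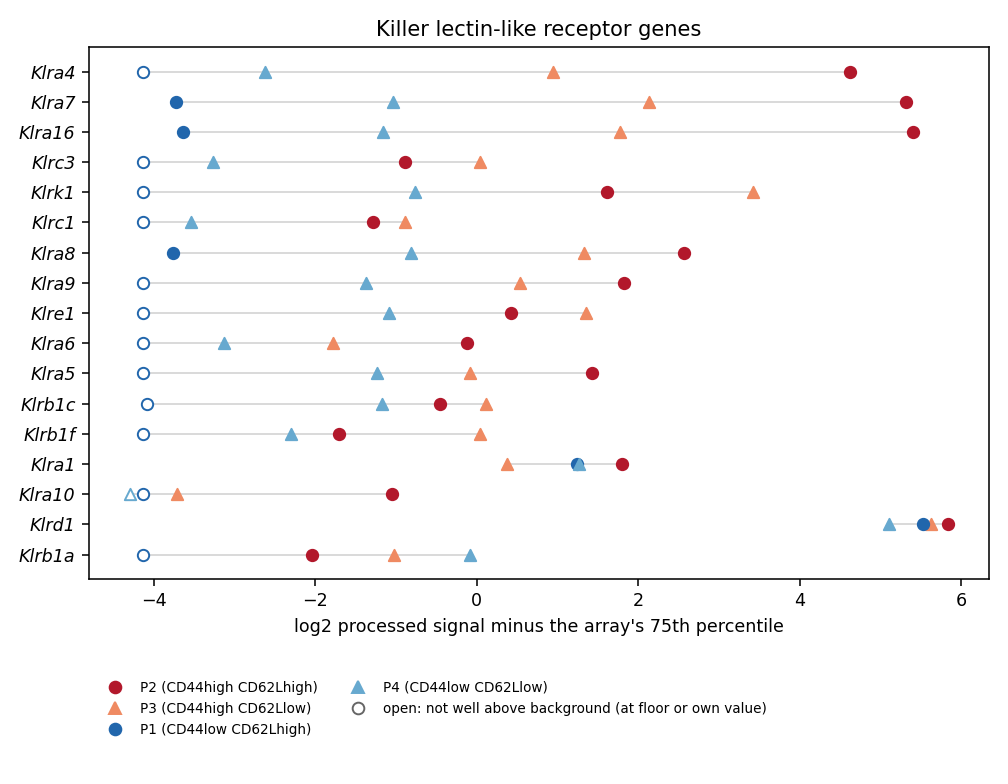
Levels (log2 signal relative to the 75th percentile of the array, horizontal axis) of the 17 measured killer lectin-like receptor genes on the 4 arrays, ordered by gap, with open symbols for signals not well above background. The P1 symbol is open in 12 rows, and in 15 rows both CD44high symbols lie to the right of both CD44low symbols.

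These genes sit together on mouse chromosome 6, in the natural killer gene complex. Klrk1, Klrc3, Klrc1, Klra5, Klra6, Klra4, Klra8, Klra9 and Klra7 were 9 genes in a row among measured genes, all at least 2-fold higher in CD44high. All of them but Klra8 and Klra7 were not well above background in P1. Those genes were measured only because both CD44high arrays were bright. Genes dim on both sides are not counted in the row and could not break it. Chromosome 6 held 17 of the 123 genes out of 601 measured (2.83%, beside 0.986% of all genes), and the 9 genes are among the 17. The Ly49 genes are closely related copies, and whether a probe reads several of them was not checked. Their values therefore cannot be taken as independent of each other. The promoters of Klra4 and Klra8 are shown as an example, with 259 of 301 aligned positions identical (86.0%) over the 300 bases around each start site. These promoters are from RefSeq (build GRCm38.p6, minus strand, 5′ to 3′), for Klra4 at chr6:130067222-130067521 and for Klra8 at chr6:130129849-130130148. For Klra8, 2 promoters were at hand, and 1 of them is shown.
Klra4: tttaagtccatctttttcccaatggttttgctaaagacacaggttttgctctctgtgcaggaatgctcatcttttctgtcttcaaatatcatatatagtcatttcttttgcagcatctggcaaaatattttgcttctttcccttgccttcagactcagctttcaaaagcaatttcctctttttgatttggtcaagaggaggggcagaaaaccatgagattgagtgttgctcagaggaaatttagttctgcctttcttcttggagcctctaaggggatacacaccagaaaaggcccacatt
Klra8: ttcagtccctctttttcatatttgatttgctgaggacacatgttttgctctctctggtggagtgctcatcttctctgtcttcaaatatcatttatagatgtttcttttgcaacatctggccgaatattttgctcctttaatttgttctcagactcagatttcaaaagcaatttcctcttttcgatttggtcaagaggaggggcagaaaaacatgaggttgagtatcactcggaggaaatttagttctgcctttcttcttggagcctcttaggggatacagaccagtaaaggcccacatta
Klra8 stood at 2.57 in P2 and 1.32 in P3, against -3.76 in P1 and -0.81 in P4 (gap 2.14). Like Klra4 it was lowest in P1 and highest in P2.

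RefSeq promoters, the 250 bases before and the 50 after each start, were searched on both strands for 8 patterns of factors known from memory and effector T cells, chosen with the gene counts known. A promoter was at hand for 104 of the 123 genes, 49 of the 62 and 9984 of all measured genes. The AP-1 pattern TGACTCA, bound by Fos and Jun proteins, was in 13 of the 104 (12.5%), in 4 of the 49 (8.16%) and in 4.49% of all 9984, or 3.73% of 12577 single promoters. The RUNX core TGTGGT was in 21.2% of the 104 and 15.6% of all, and the longer TGTGGTTT in 0.96% and 1.52%. The T-box patterns AGGTGTGA, AGGTGTNA and AGGTGT were in 2.88%, 3.85% and 14.4% of the 104 and in 1.25%, 3.03% and 13.5% of all. The STAT pattern TTCNNNGAA was in 9.62% of the 104 and 8.47% of all, and the KLF pattern CCACACCC in 4.81% and 4.66%. The shorter patterns lie within the longer ones, and RUNX and KLF matches can share bases. The 13 genes include Ctla2a and Ctla2b, a pair of near-identical genes. The promoters of Klrk1, Klrc3 and Ifitm10 are shown as examples, with the AP-1 match in capitals, at chr6:129623815-129624114, chr6:129643239-129643538 and chr7:142372210-142372509 (GRCm38.p6, all on the minus strand). For Ifitm10, 3 promoters were at hand, and 1 that held a match is shown.
Klrk1: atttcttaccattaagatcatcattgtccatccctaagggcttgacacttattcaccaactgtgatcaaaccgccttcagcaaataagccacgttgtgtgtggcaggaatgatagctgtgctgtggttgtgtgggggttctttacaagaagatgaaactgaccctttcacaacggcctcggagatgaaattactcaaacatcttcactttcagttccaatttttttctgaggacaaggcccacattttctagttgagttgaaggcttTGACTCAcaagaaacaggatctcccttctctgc
Klrc3: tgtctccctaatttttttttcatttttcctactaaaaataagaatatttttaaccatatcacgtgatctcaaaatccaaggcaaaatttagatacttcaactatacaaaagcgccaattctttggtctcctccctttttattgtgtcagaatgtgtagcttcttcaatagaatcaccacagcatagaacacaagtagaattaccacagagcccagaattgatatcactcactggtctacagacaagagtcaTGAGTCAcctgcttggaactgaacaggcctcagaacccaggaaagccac
Ifitm10: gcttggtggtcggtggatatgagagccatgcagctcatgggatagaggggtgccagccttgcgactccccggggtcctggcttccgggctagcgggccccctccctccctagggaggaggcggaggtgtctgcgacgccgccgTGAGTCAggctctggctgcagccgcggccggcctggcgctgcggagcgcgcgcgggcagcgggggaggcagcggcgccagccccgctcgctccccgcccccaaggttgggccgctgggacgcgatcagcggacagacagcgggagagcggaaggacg
A match is a description of the letters only, and no binding was measured.

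Memory and virtual memory genes had 10 of 26 measured members at least 2-fold higher (beside 0.986% of all genes) and 0 lower, with a median side difference of 2.09, or 0.71 without the P1 array. Of the 22 well above background on all 4 arrays, 7 were at least 2-fold higher. Klrk1 and Klrc1 are members of the killer lectin-like list too. Besides the genes above, the 10 included Cxcr3, a receptor for interferon-induced chemokines, with 5.64 in P2 and 6.03 in P3, against 2.26 in P1 and 4.06 in P4 (gap 1.58). Itgb1, the integrin beta 1 chain, had 4.47 in P2 and 5.6 in P3, against 2.35 in P1 and 3.02 in P4 (gap 1.46). Il18r1, the second chain of the interleukin 18 receptor, had 4.51 in P2 and 4.07 in P3, against 2.69 in P1 and 1.73 in P4 (gap 1.38). In each of them P2 and P3 were nearer to each other than to either CD44low array. Il2rb, the chain that receives interleukin 2 and 15, was higher with a gap of 0.31, since its level of 6.11 in P4 came near the 6.42 in P3. Ly6c1 and Ly6c2, near-identical surface antigen genes, were higher with gaps of 0.05 and 0.04, inside the spot noise.

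The effector and cytotoxic list had 27 measured members, of which 2 exceeded 2-fold upwards (beside 0.986% of all genes) and 0 downwards. In all, 6 were higher without overlap (beside 13.1%) and 21 overlapped, with a median side difference of 2.30. The 2 were Gzmm and Tbx21, which encodes the transcription factor T-bet. Tbx21 stood at 4.28 in P2 and 4.60 in P3, against 0.17 in P1 and 2.98 in P4 (gap 1.31). Lgals1, Anxa1, Anxa2 and Tnf were higher by under 2-fold. Among the genes that overlapped were Gzma, Gzmb and Ccl5, each higher in P4 than in P2. Gzma, the gene of granzyme A, had 1.95 in P2 and 7.33 in P3, against -0.20 in P1 and 7.44 in P4, and Gzmb had -0.11 in P2 and 5.65 in P3, against -2.04 in P1 and 4.62 in P4. Ccl5, a chemokine gene of memory cells, had 8.06 in P2 and 8.03 in P3, against 2.91 in P1 and 8.52 in P4. For these genes P1 stood apart from the other arrays, or the CD62Llow arrays from the CD62Lhigh arrays. The median of 2.30 was 0.22 without the P1 array and 0.67 without the P3 array.

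Among transcription factors of effector and memory cells, 25 were measured. Of these, 3 were at least 2-fold higher in CD44high (beside 0.986% of all genes) and 0 lower (beside 0.497%). Of the 24 well above background on all 4 arrays, 2 were at least 2-fold higher. The sides overlapped in 20 of the 25, beside 8245 of all 12474 genes. Beside Tbx21 the 3 higher genes were Hopx, a homeodomain-only protein of memory cells (4.25 in P2 and 4.42 in P3, against 2.25 in P1 and 2.89 in P4, gap 1.36), and Runx2 (-1.62 in P2 and -0.79 in P3, against a signal not well above background in P1 and -2.84 in P4, gap 1.21, under 2-fold after normexp). Hopx and Hopxos are named as a sense and opposite-strand pair, and both were higher. Eomes, the other T-box factor, had a gap of 0.34, with 4.16 in P2 and 4.31 in P3, against 1.84 in P1 and 3.82 in P4. Bhlhe40, Prdm1 and Maf overlapped, each high in P3 and P4.

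Receptors for chemokines and cytokines moved in both directions. Of 14 measured chemokine receptor genes, 4 were at least 2-fold higher (Ccr2, Cxcr3, Cxcr5 and Ccr10) and 1 lower (Ccr9). The shares over all genes were 0.986% higher and 0.497% lower. Of the 8 well above background on all 4 arrays, 2 were at least 2-fold higher and 1 lower. Cxcr5, the receptor for the follicle chemokine CXCL13, had 2.74 in P2 and 2.56 in P3, against -0.93 in P1 and 0.55 in P4 (gap 2.01). Ccr10 gave a bound of 2.17-fold at low levels (-3.02 in P2 and -1.58 in P3). Ccr9, a homing receptor of the gut, had -0.41 in P2 and 2.19 in P3, against 4.62 in P1 and 4.63 in P4 (gap -2.43). Its CD44low levels were the same within spot noise, while its CD44high levels were 2.60 apart. The list's median of 2.16 was -0.23 over genes well above background on all 4 arrays and -0.16 in the authors' deposited values, so it gives no direction for the family. Of 23 measured cytokine receptor genes, 2 were at least 2-fold higher (Il18rap and Il18r1) and 2 lower, beside 0.986% and 0.497% of all genes. Ifngr2, the signalling chain of the interferon gamma receptor, had -1.0 in P2 and -0.28 in P3, against 2.26 in P1 and 1.74 in P4 (gap -2.02, 4.05-fold lower). Tgfbr3, a coreceptor of TGF-beta, had -0.70 in P2 and 0.41 in P3, against 2.06 in P1 and 1.60 in P4 (gap -1.19). Ifngr1, the ligand-binding chain that pairs with Ifngr2, went the other way with a gap of 0.04, inside the spot noise. Among 18 integrin and adhesion genes, Itgb1 and Itgax were at least 2-fold higher (beside 0.986% of all genes) and Itgae was lower (beside 0.497%). Itgax was not well above background in P1. Itgae, the alpha chain of the receptor for E-cadherin, had 0.62 in P2 and 3.04 in P3, against 4.05 in P1 and 4.06 in P4. Its gap of -1.01 was under 2-fold with each other scaling and with normexp.

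The 62 genes lower in CD44high included few members of the lists. Grm6, a glutamate receptor gene, had the largest gap, with -2.64 in P2 and -3.65 in P3, against 0.04 in both P1 and P4 (gap -2.68, 6.42-fold lower). Gpr83, a G protein-coupled receptor gene known from regulatory T cells, had -2.13 in P2 and -0.96 in P3, against 1.39 in P1 and 1.61 in P4 (gap -2.35). Zcchc12 (gap -2.44), Tmie (-2.25), a transmembrane protein of the inner ear, Cnn3, an actin-binding calponin (-2.17), and Xkrx (-2.15) were also at least 4-fold lower. None of these genes was a member of a list. Slc6a19, an amino acid transporter gene with a gap of -2.31, had its P2 spot in a locally bright area. Wnt5b had -2.69 in P2 and a signal not well above background in P3, against -0.08 in P1 and -0.59 in P4 (gap -2.10). Plaur, the urokinase receptor gene, had -1.99 in P2 and -0.99 in P3, against 1.63 in P1 and 0.94 in P4 (gap -1.94). Ldhd, a lactate dehydrogenase, gave the largest bound, at least 4.35-fold lower.

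The lower genes kept closer within their sides than the higher ones. Both within-side differences were under 1 in 42 of 62 genes and under 0.5 in 14, and the gap exceeded both in 50. P3 was above P2 in 22 of them and P4 above P1 in 13, so that P1 was mostly the highest array. Rgcc, a regulator of the cell cycle, had 3.90 in P2 and 4.19 in P3, against 6.10 in P1 and 5.95 in P4 (gap -1.76). Nfix, a transcription factor gene with 3 measured probes going one way, had -1.73 in P2 and -2.09 in P3, against 0.08 in P1 and -0.14 in P4 (gap -1.59). Nim1k, a kinase gene, had a gap of -1.91 and Gprc5b one of -2.04. Tmie, Als2cl and Fam240a were neighbours on chromosome 9 and all lower. Bounds made up 7 of the 62, and 17 of 18 genes with a second measured probe separated the same way by it.

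Naive and quiescence genes had 2 of 25 measured members at least 2-fold lower in CD44high (beside 0.497% of all genes), 6 lower by any gap (beside 20.8%), 0 higher and 19 overlapping (median side difference -0.48, or 0.04 without the P3 array). The 2 were Ccr9 and Igfbp4, a binding protein of insulin-like growth factors, which had -1.01 in P2 and -3.67 in P3, against 2.06 in P1 and 0.90 in P4 (gap -1.91). Lef1, Bach2, Actn1 and Sox4 were lower with smaller gaps, of which that of Sox4 was -0.68. The gaps of Lef1 (-0.07), Bach2 (-0.13) and Actn1 (-0.01) were inside the spot noise. Tcf7, Ccr7, Satb1 and Klf2 overlapped, because P2 kept levels close to those of the CD44low arrays. Tcf7, which encodes TCF-1, had 4.67 in P2 and 3.90 in P3, against 4.84 in P1 and 4.29 in P4.

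**Figure D3:**
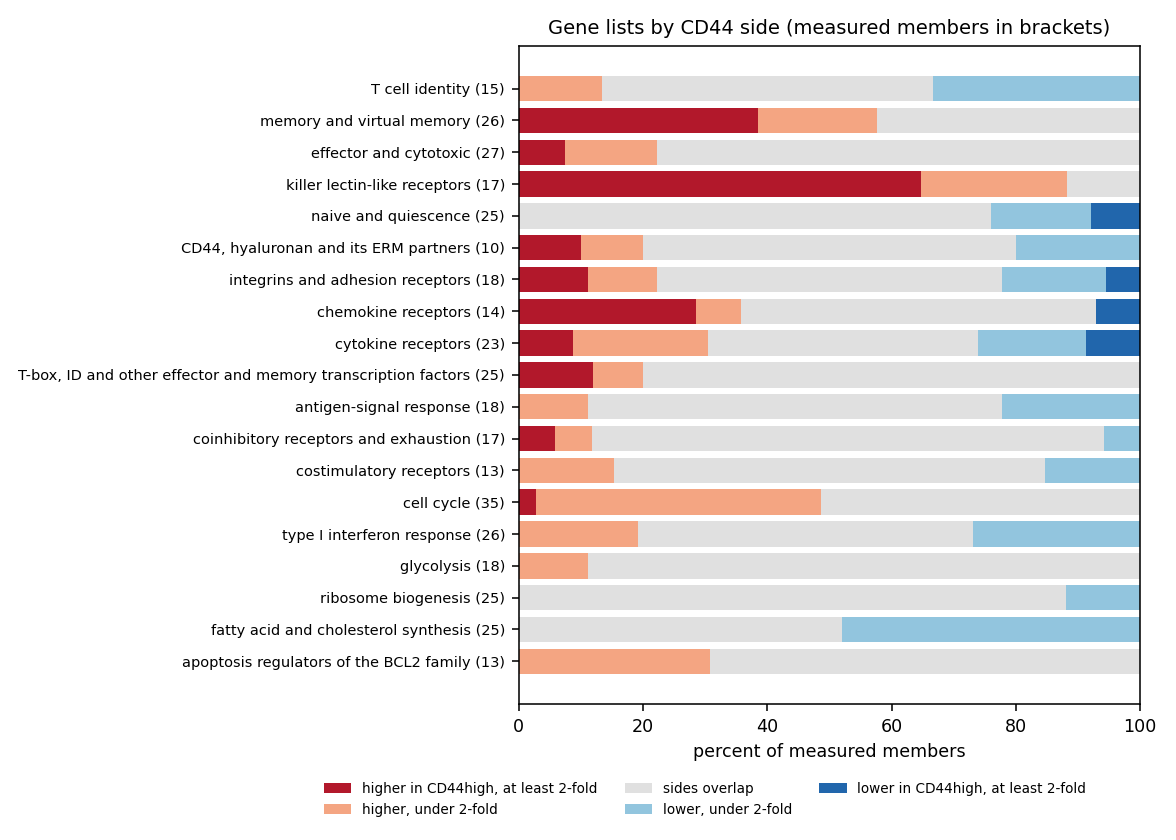
Percent of measured members (horizontal axis) of each gene list that were higher in both CD44high arrays, overlapped or were lower, with the number measured in brackets. Killer lectin-like receptors have the longest dark red bar (11 of 17), and fatty acid and cholesterol synthesis has 12 of 25 members lower by under 2-fold.

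Several processes showed small gaps in 1 direction. Of 35 cell cycle genes, 17 were higher without overlap and 0 lower, beside 13.1% of all genes higher. Ccnb2, a mitotic cyclin, was the one at least 2-fold higher, with 0.60 in P2 and 2.60 in P3, against -1.32 in P1 and -0.73 in P4 (gap 1.34), and Birc5, the gene of survivin, had a gap of 0.94. P3 was the highest array for most of these genes, and the list median of 0.73 was 0.30 without it. Of 25 fatty acid and cholesterol synthesis genes, 12 were lower without overlap and 0 higher, beside 20.8% of all genes lower. Of 13 regulators of apoptosis, 4 were higher (beside 13.1% of all genes) and 0 lower, led by Bcl2l1, which encodes the survival protein BCL-XL (4.04 in P2 and 4.27 in P3, against 2.49 in P1 and 3.18 in P4, gap 0.85). The gaps of the other 3, Bcl2l11, Pmaip1 and Bad, were inside the spot noise. Bcl2 overlapped. Type I interferon response genes split, with 5 higher, 7 lower and 14 overlapping of 26, or 7 higher and 5 lower after quantile normalization, and 0 members were at least 2-fold apart. Ribosome biogenesis genes overlapped in 22 of 25 and glycolysis genes in 16 of 18, beside 8245 of all 12474 genes.

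Coinhibitory and exhaustion genes overlapped in 14 of 17, beside 8245 of all 12474 genes. The one at least 2-fold higher was Lair1, an inhibitory collagen receptor gene, with 0.97 in P2 and 1.32 in P3, against -0.04 in P1 and -1.12 in P4 (gap 1.01), a call that normexp background correction ended. Lag3, Tigit, Entpd1 and Maf were each higher in P3 and P4 than in P2 and P1, like Pdcd1. Antigen-signal genes overlapped in 12 of 18, close to that share, with Egr1, Egr2, Egr3 and Fos lower and Cd5 and Ier2 higher, all by under 2-fold. T cell identity genes had 2 higher, 5 lower and 8 overlapping of 15, or 3 higher and 2 lower after quantile normalization and in the authors' deposited values, with no gap beyond 0.25.

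The CD62L-matched pairs P2 over P1 and P3 over P4 were also read singly. At least 2-fold higher in P2 than in P1 were 543 genes and lower 249, and in P3 over P4 755 and 458. In both pairs at once, 302 genes were higher and 112 lower. Of the 302, 123 had a gap of at least 2-fold, 94 a smaller gap and 85 overlapped because a CD44low array of one CD62L class exceeded a CD44high array of the other. S100a4, a calcium-binding protein gene of effector cells, is such a gene, with 3.01 in P2 and 7.98 in P3, against -1.98 in P1 and 4.78 in P4. Lgals3, the gene of galectin 3, had -0.29 in P2 and 5.36 in P3, against -3.94 in P1 and 2.29 in P4, and S1pr5, a receptor for sphingosine 1-phosphate, behaved alike. In these genes CD44high was higher at each CD62L level, and CD62Llow was higher at each CD44 level. Of the 112, only 3 overlapped.

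**Figure D4:**
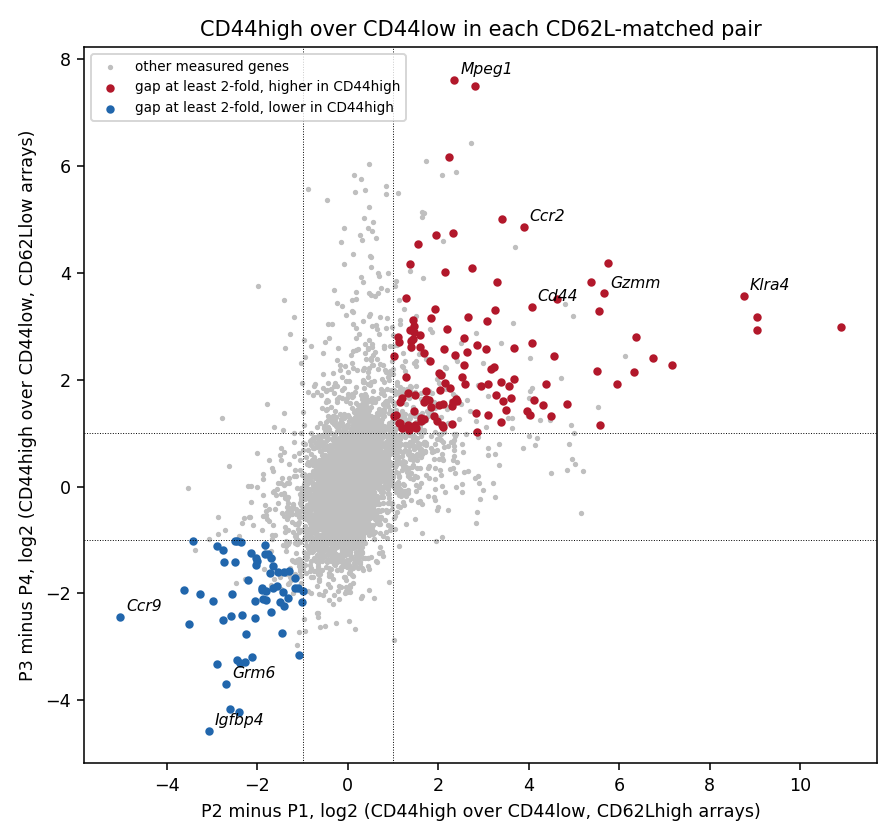
P3 minus P4 (vertical axis, log2) against P2 minus P1 (horizontal axis, log2) for all 12474 measured genes, with the 123 genes at least 2-fold higher in red, the 62 lower in blue and dotted lines at 2-fold. Red points lie in the upper right and blue points in the lower left, and grey points in the upper right are the genes higher in both pairs whose sides overlap or whose gap is under 2-fold.

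Markers of other cell types were read beside these genes, since in sorted bulk samples fewer cells of a type and less RNA per cell cannot be told apart. Class II and type 2 dendritic cell markers had a log2 summed level of 3.67 in P2 and 8.37 in P3, against 3.27 in P1 and 3.97 in P4, with 8 of 12 measured. Type 1 dendritic cell markers had 3.05 in P2 and 6.10 in P3, against 4.34 in P1 and 4.83 in P4, and erythroid markers -0.34 in P2 and 3.62 in P3, against -1.08 in P1 and -0.05 in P4. B cell markers had 2.95 in P2 and 4.08 in P3, against 3.08 in P1 and 2.88 in P4, and macrophage markers 5.56 in P2 and 6.28 in P3, against 5.56 in P1 and 5.24 in P4. Some of these sums lean on 1 gene. Itgam was the brightest macrophage marker on every array (5.37 in P2 and 5.10 in P3, against 5.43 in P1 and 5.05 in P4). Cd79b was the brightest B cell marker on every array (2.64 in P2 and 3.10 in P3, against 2.89 in P1 and 2.66 in P4). Itgae was the brightest type 1 dendritic cell marker in P1 (4.05) and P4 (4.06). Among 13 lists of other cell types, 8 had their highest sum in P3, the lists above included. The sum of plasmacytoid dendritic cell markers went the other way, with 7.18 in P2 and 6.92 in P3, against 7.44 in P1 and 7.31 in P4. Its members were split. Siglech, the brightest in P2, P1 and P4, had 6.30 in P2 and 4.88 in P3, against 6.12 in P1 and 6.15 in P4. Ccr9 and Irf7 were each highest on a CD44low array. Tcf4 (2.17), Ly6d (2.89), Cox6a2 (2.07), Klk1 (-0.09) and, narrowly, Bst2 (4.48) were highest in P3. The sum of neutrophil markers was 7.64 in P2 and 7.23 in P3, against 7.63 in both P1 and P4. It rested almost wholly on Csf3r, with 7.63 in P2 and 7.21 in P3, against 7.62 in both P1 and P4. S100a8 (-1.56) and S100a9 (0.31) were highest in P3, and Camp (-2.54) was highest in P1. Gamma delta and innate-like T cell markers summed to 5.15 in P2 and 3.29 in P3, against 0.32 in P1 and 2.43 in P4. The P2 sum rested mostly on Cd163l1 itself (4.87), followed by 5830411N06Rik (2.45). Other members did not stand out in P2. Sox13 had -1.41 in P2, against -1.43 in P1 and -1.46 in P4. Maf had -1.63 in P2 and was highest in P3 (2.58). Zbtb16 (-1.85) and Il23r (-3.55), both outside the filter, were also highest in P3. The part of gamma delta and innate-like T cells in the Cd163l1 value was not tested. Genes of antigen-presenting cells among the 123 included Mpeg1, Aif1 (gap 1.37), Itgax, which encodes CD11c (gap 1.33), and Apol7c (gap 1.46), and others were not searched for. Mpeg1, a pore-forming protein of phagocytes, had -1.78 in P2 and 4.55 in P3, against a signal not well above background in P1 and -3.06 in P4 (gap 1.28). In each of these 4 genes P3 was far above P2, while Cd40, described above, was higher in P2. The share of such cells in the P3 sort was not measured, and their part in the P3 values was not tested. Defining markers Clec9a (1.09), Batf3 (1.33), Cd209a (0.52) and Clec10a (0.90) were above background in P3 alone, and Cd79a and Ncr1, which mark B cells and natural killer cells, were well above background on both arrays of neither side. Natural killer cell markers had a summed level of 7.90 in P2 and 8.27 in P3, against 6.92 in P1 and 7.75 in P4. The 4 of 10 that were at least 2-fold higher (beside 0.986% of all genes) were all killer lectin-like receptors. Of the 5 natural killer cell markers well above background on all 4 arrays, 1 was at least 2-fold higher.

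Genes beside the 2-fold threshold differed little from each other. Just inside it were Fzd5 (a bound of 1.01 on the log2 scale), Sntb2 (1.01) and Aspm (1.01), and just outside it Cadm1 (a bound of 0.98), Map3k8 (0.98) and Evc (a bound of 0.97). Among lower genes, Itgae (-1.01), Gstm1 (-1.0) and Sema4g (a bound of -1.0) were just inside, and Kcna2 (-0.98), Vangl2 (-0.98) and Myo5b (-0.97) just outside. A change within spot noise would carry any of these across.

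Further genes among the 185 are given here that were chosen after their values were seen. Plek, the gene of pleckstrin, had 4.53 in P2 and 4.96 in P3, against -2.63 in P1 and 2.68 in P4 (gap 1.84). Ahnak, a very large scaffold protein, had 4.96 in P2 and 5.62 in P3, against 2.89 in P1 and 3.52 in P4 (gap 1.44). Ctla2a, a cathepsin inhibitor gene of activated T cells, had 7.0 in P2 and 6.38 in P3, against 2.51 in P1 and 5.07 in P4 (gap 1.31), and its near-identical neighbour Ctla2b had a gap of 1.54. Il3ra, the interleukin 3 receptor chain, had a gap of 1.03, and Ifngas1, a noncoding RNA gene next to Ifng, one of 1.43 (2.36 in P2 and 1.30 in P3, against -1.13 in P1 and -0.13 in P4). Ifng itself overlapped, with 5.21 in P2 and 6.97 in P3, against 1.22 in P1 and 5.64 in P4. Among lower genes, Ramp1, a subunit of the receptor for calcitonin gene-related peptide, had 2.08 in P2 and 1.5 in P3, against 3.95 in P1 and 3.60 in P4 (gap -1.52). Ramp3, of the same family, was lower with a gap of -1.02. Actn2 had 1.91 in P2 and 2.87 in P3, against 4.41 in P1 and 4.27 in P4 (gap -1.41), and Matk, a kinase that inhibits Src kinases, had a gap of -1.09. Probes without a gene name added 37 higher and 28 lower at 2-fold, of 9627 measured.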

How the data were processed

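RNA of the 4 sorted CD8 T cell subsets was copied from random primers, marked with Cy3 and put on 1 Agilent array each, per the labels' protocols. The deposited intensity of each spot comes from Agilent Feature Extraction 11.0.1.1, per the submitters' processing notes and the file headers, which state background subtraction and spatial detrending and no normalization between arrays. A second table, deposited by the authors, gives 26188 probes on a log2 scale. All its 4 columns have a median of 8.85, by which it was taken to be quantile normalised without centring, and it served as an alternative.

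Of 62976 spots an array, 59305 belonged to 56605 probes that are no controls. From 122 to 152 outlier spots an array were dropped, and saturation flags numbered 0. The 75th percentile of processed signal over probes was 332 in P2 and 550 in P3, against 333 in P1 and 315 in P4. Levels were log2 of the processed signal minus that of the percentile, with repeated spots averaged. RefSeq accessions named 32994 probes (58.3%), for 22909 genes, through a gene table of GRCm38.p6, and the probe with the highest mean stood for its gene. A gene was measured if well above background on both arrays of at least 1 side (12474 genes). Where a signal that was not well above background lay under the lowest one of its array that was, it took that value, and a gap set by it is a bound.

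Genes were counted by size alone, with a threshold of 2-fold. Members and lists were chosen with earlier results of these data known. Named genes were, in each direction, the 12 with the largest gap, the 4 largest bounds, the 6 largest gaps among genes whose arrays lay within 0.5 on both sides, up to 5 members of each list, the 3 on either side of the threshold and the sorted and lineage markers, without genes whose probes differed in sign or with clone names. Some of these are not reported here, and further list members it names were chosen after their values were seen. Spots were called locally bright by their neighbours within 32 position units (a median of 19): more of these were at least 2-fold above every other array than the rate of that array would give in 1% of spots. Alternatives were other scalings, filters, background correction (normexp with offset 50, on median signals, as mean signals were not used here), probe choice, the deposited values, a 4-fold threshold and leaving out each array. The comparison of matched pairs and the promoter patterns were added after seeing the data. Python 3.11.15 with numpy 2.4.6, pandas 2.3.3 and matplotlib 3.10.9, and R 4.3.3 with limma 3.58.1, were used.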

Additional observations from a re-analysis of the deposited data

Results flagged for a closer look

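Some genes moved in opposite directions in the CD62L-matched pairs, that is, between CD44high and CD44low cells that were CD62Lhigh (P2 minus P1) and between those that were CD62Llow (P3 minus P4). With 1 array per subset these differences were not tested. In 8 genes P2 was below P1 and P3 above P4, each by at least 2-fold, and 3 genes went the other way, out of 11836 genes well above background on all 4 arrays. Ly6d, a surface antigen gene of lymphoid progenitors and plasmacytoid dendritic cells, had a P2 minus P1 difference of -1.99 and a P3 minus P4 difference of 3.75, with levels of -3.64 in P2 and 2.89 in P3, against -1.66 in P1 and -0.86 in P4. Tmem176b, a membrane channel gene known from dendritic cells, had differences of -1.41 and 3.50 in these pairs. Cd81, a tetraspanin gene of B cells and other leukocytes, had -1.40 and 2.60. Tcf4, the gene of the transcription factor E2-2 of plasmacytoid dendritic cells, had -1.20 and 3.18. Each of these 4 genes was highest in P3, where the summed level of class II and type 2 dendritic cell markers was also highest (8.37). The sum of plasmacytoid dendritic cell markers, a list that includes Ly6d and Tcf4, was lowest there (6.92). In that list Siglech (4.88 in P3) was lower in P3 than on every other array, while Cox6a2 (2.07 in P3), Ly6d and Tcf4 were highest in P3. A part of dendritic cells in the values of these 4 genes was not tested. Pomgnt2, a glycosyltransferase gene, went the other way, with 1.02 and -2.88 and its lowest level, -3.98, in P3.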

How the results depend on the processing

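Quantile normalization, scaling to a median and keeping outlier spots gave 120, 126 and 124 genes at least 2-fold higher in CD44high in place of 123, and 63, 55 and 62 lower in place of 62. The mean over probes gave 101 and 55, and leaving out locally bright areas 106 and 60. Counts moved further with other alternatives, some of which change several settings at once: normexp on median signals with an offset gave 63 higher and 33 lower, no filter and no floor 211 and 102, genes above background on all 4 arrays 75 and 52, the authors' deposited values 80 and 49, and 4-fold 27 and 12. Of the 63 under normexp, 61 were among the 123. The matched-pair count, added after seeing the data, gave 302 and 112. Leaving out an array leaves fewer arrays to separate, so counts grow by construction. Without P2, P3, P1 and P4 they were 1144, 297, 163 and 430 higher and 375, 143, 143 and 220 lower, and all of the 123 and of the 62 were among them.

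With a gap of any size, no filter gave 2829 genes higher, and leaving out P2, P3, P1 and P4 gave 5172, 3475, 3251 and 2977. Lower with any gap were 5973 without P2, 4439 without P3 and 5739 without P4. Genes at least 2-fold apart by CD62L numbered 352 and, above background on all arrays, 173.

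List medians of at least 0.5 in size that changed sign were those of neutrophil markers (-0.16 on all-array genes and with no filter, -0.20 without P4), CD4 and regulatory T cell markers (-0.67 without P3, -0.41 without P1), stroma (0.74 without P2), chemokine receptors (-0.23 on all-array genes, -0.16 in the deposited values) and coinhibitory receptors (-0.21 without P3, -0.37 without P1). Smaller medians that crossed 0 were those of naive genes (0.04 without P3), innate lymphoid cell markers (-0.25 without P3) and transcription factors (-0.01 without P1), and those of T cell identity, BCL2 family, ribosome biogenesis, interferon, costimulatory, cytokine receptor, integrin, hyaluronan, plasma cell and plasmacytoid dendritic cell lists. The bound of Fzd5 was -0.093 after normexp. Under 2-fold after normexp were also Ccr10, Runx2, Lair1, Aif1, Mpeg1 and Nim1k, and with the mean over probes Gcat, Ifitm10, Itgax and Mpeg1. The causes were not tested. Of the named genes at least 2-fold apart, no other than Fzd5 changed sign under the alternatives run, while smaller gaps did, such as those of Cd3e, Cd3g, Nf2, Aldoa and Rrp9 with other scalings and of Cadm1, Evc and Cd68 with normexp or another probe choice. No fit with a replicate block was possible because the labels give no replicate numbers, and the CD62L-matched pairs were read by size alone. Dim genes are limited by background: below a level of -3, spot noise alone spans 0.63.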
